A study of Mus musculus with 32 samples.

Results

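The Asxl1 guide cells were examined for H3K27me3 against H2AK119ub, the marks left by the 2 Polycomb repressive complexes, by asking which gene starts and regions held both marks or only one. They account for 6 of the 32 samples of the series, 3 libraries for each mark, chosen by the label for the guide and the antibody. The cells are HoxB8 cells, mouse bone marrow progenitors immortalised by a HoxB8 that needs estrogen, grown with stem cell factor, and all samples had been without estrogen for 48 h. The groups were Asxl1 guide cells (guide B2 against Asxl1, designed to truncate it, with empty vector, n = 3 for each mark), control cells (non-targeting guide with empty vector, n = 2), CSF3R T618I cells (non-targeting guide with the mutant receptor, n = 3) and double cells (both changes, n = 2). Each mark was mapped by CUT&Tag, in which an antibody tethers a transposase that cuts out the DNA beside the mark. The deposited lists give peak positions with no height or read count, so the depth behind each value is unknown. A single guide in a single immortalised line stands for the Asxl1 change, and the labels do not say whether replicates were separate cultures, so p-values measure the spread between these libraries.

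Polycomb repressive complex 2 trimethylates a lysine of histone H3, which gives H3K27me3, and Polycomb repressive complex 1 ubiquitinates a lysine of histone H2A, which gives H2AK119ub. Each complex can bind the mark of the other, so the marks often lie together, mainly over CpG-rich starts of developmental genes that blood cells keep silent. Variant forms of complex 1 can also place H2AK119ub without H3K27me3. Asxl1 is a partner of Bap1, the enzyme that takes ubiquitin off H2A, and truncated ASXL1 is common in myeloid malignancy.

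H3K27me3 peaks covered 4.73 Mb in replicate 1 and 12.4 Mb in replicate 3, whereas the replicate 2 list covered 53.0 Mb and is given apart throughout. H2AK119ub covered 11.8, 13.4 and 16.7 Mb. In control cells H3K27me3 covered 15.9 and 22.7 Mb and H2AK119ub 21.2 and 19.9 Mb. The Asxl1 start window carried neither Polycomb mark in any Asxl1 guide or control library, so the marks did not check the edit. As a check of cell type, H3K4me1, found at enhancers and around active starts, lay in all 3 Asxl1 guide libraries at the start windows of 11 of 12 myeloid progenitor and neutrophil markers. The same held for 2 of 6 monocyte, 0 of 10 lymphoid, 1 of 8 erythroid and megakaryocyte, 2 of 6 mast cell and basophil, and 1 of 5 fibroblast markers. Over all protein-coding gene starts it held for 2378 of 21887 (10.9%). Per 10 kb window, 29.7% of all gene starts touched a peak of the merged IgG list, the background made without a mark-specific antibody. That list holds 53972 peaks and merges 1 sample of Asxl1 guide and 1 of CSF3R T618I cells. Control and double cells had no IgG sample.

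The value used at genes is the fraction of a 10 kb window centred on the gene start that lay in peaks. Start windows were set for 21887 protein-coding genes, 4395 of them at the gene end with more coverage because no start was listed. A mark was called present where at least 0.2 of the window was covered in every library used (replicates 1 and 3 for H3K27me3, replicates 1 to 3 for H2AK119ub), absent where no library used had a peak, and partial otherwise. The promoters of 5 genes that stand for the 3 marked classes are shown with each CG dinucleotide, the base step that marks CpG islands, in capitals. They run from 250 bases before to 50 after the start, on the coding strand, and come from RefSeq on GRCm38.p6. Irx3 and En1 carried both marks, Rxrg H3K27me3 only, and Igsf8 and Gimap1 H2AK119ub only.
Irx3: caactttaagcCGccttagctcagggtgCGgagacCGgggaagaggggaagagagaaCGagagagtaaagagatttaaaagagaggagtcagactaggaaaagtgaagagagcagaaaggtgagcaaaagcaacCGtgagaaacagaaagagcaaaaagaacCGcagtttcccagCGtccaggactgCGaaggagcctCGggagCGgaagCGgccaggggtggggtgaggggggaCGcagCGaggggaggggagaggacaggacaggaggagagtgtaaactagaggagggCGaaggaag
En1: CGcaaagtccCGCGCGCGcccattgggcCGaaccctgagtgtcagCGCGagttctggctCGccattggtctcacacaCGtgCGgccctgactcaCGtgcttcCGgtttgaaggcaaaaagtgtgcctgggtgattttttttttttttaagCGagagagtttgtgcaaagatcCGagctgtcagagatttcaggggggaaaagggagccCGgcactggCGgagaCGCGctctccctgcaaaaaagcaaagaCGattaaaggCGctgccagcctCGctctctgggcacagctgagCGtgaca
Rxrg: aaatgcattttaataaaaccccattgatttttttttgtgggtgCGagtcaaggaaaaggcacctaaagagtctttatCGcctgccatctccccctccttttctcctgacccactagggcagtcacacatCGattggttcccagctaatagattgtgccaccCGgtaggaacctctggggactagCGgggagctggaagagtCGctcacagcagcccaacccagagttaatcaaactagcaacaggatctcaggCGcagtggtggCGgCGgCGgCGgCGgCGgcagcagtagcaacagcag
Igsf8: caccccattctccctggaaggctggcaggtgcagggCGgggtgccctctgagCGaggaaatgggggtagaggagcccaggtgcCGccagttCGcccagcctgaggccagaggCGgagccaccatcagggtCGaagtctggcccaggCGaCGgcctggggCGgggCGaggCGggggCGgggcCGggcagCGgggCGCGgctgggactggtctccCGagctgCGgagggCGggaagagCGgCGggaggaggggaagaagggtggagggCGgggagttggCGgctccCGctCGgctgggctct
Gimap1: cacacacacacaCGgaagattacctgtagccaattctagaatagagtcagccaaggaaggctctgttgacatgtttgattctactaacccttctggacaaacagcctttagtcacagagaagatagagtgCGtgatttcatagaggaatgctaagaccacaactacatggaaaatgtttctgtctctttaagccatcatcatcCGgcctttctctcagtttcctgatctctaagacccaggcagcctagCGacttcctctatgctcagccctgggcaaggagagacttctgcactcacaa
These lie at chr8:91801605-91801904 on the minus strand (Irx3) and, on the plus strand, at chr1:120602237-120602536 (En1), chr1:167598112-167598411 (Rxrg), chr1:172312117-172312416 (Igsf8) and chr6:48738797-48739096 (Gimap1). The sequence held 14 CG in Irx3, 23 in En1, 13 in Rxrg, 25 in Igsf8 and 4 in Gimap1. Among 17492 promoters of this length, 94.8% held at least 1 CG and the median was 13. The 2 genes with H2AK119ub only lay toward opposite ends of the range, with at least as many CG in 24.5% of promoters for Igsf8 and in 75% for Gimap1. For the other genes this share was 49.5% (Irx3), 28.9% (En1) and 51.5% (Rxrg).

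Most gene starts with H3K27me3 in both replicates 1 and 3 held H2AK119ub too. H3K27me3 was present at 492 windows, of which 480 had a peak of every H2AK119ub library and 345 met the 0.2 rule for both marks. H2AK119ub was present at 820 windows, and 686 of these had a peak of H3K27me3 replicates 1 and 3. By class, 345 windows held both marks (1.58% of 21887), 84 held H2AK119ub only (0.384%) and a single window, that of Rxrg, held H3K27me3 only. Neither mark was found at 16355 windows, and 5102 were partial. In the longer list of H3K27me3 replicate 2, all 345 windows with both marks were covered to at least 0.2, whereas 12 of the 84 windows with H2AK119ub only were covered to that extent and 42 had no peak. The counts depend on the thresholds: at 0.1 of the window they were 840, 24 and 195 for both, H3K27me3 only and H2AK119ub only, and in a 2 kb window 928, 79 and 188. Leaving out H3K27me3 replicate 1, the shortest list, gave 613, 33 and 86. Replicate 3 alone covered 1387 windows to at least 0.2, so the 613 with both marks were not most of them.

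Among the windows most fully covered by both marks were those of several transcription factors of development. At Irx3, an Iroquois homeobox factor of neural and limb patterning, H3K27me3 covered 0.705 and 0.960 of the window in replicates 1 and 3 (1 in replicate 2), and H2AK119ub covered 0.930, 0.945 and 0.800. At En1, a homeobox factor of the midbrain and hindbrain boundary, H3K27me3 covered 0.644 and 0.919 (1 in replicate 2) and H2AK119ub 0.809, 0.885 and 0.750. The values of the 2 marks overlapped at both genes, and the lowest was that of H3K27me3 replicate 1. At Tbx1, a T-box factor of pharyngeal development, H3K27me3 covered 0.5 and 0.963 (1 in replicate 2) and H2AK119ub 0.863, 0.690 and 0.738, and a peak of the IgG list covered 0.18 of that window. Sim2, Otx1 and Dmrta2, all developmental transcription factors, and Asic4, an acid-sensing ion channel subunit gene, were also among the most covered, with H3K27me3 at 0.517 to 0.991 in replicates 1 and 3 and H2AK119ub at 0.700 to 1.

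**Figure D1:**
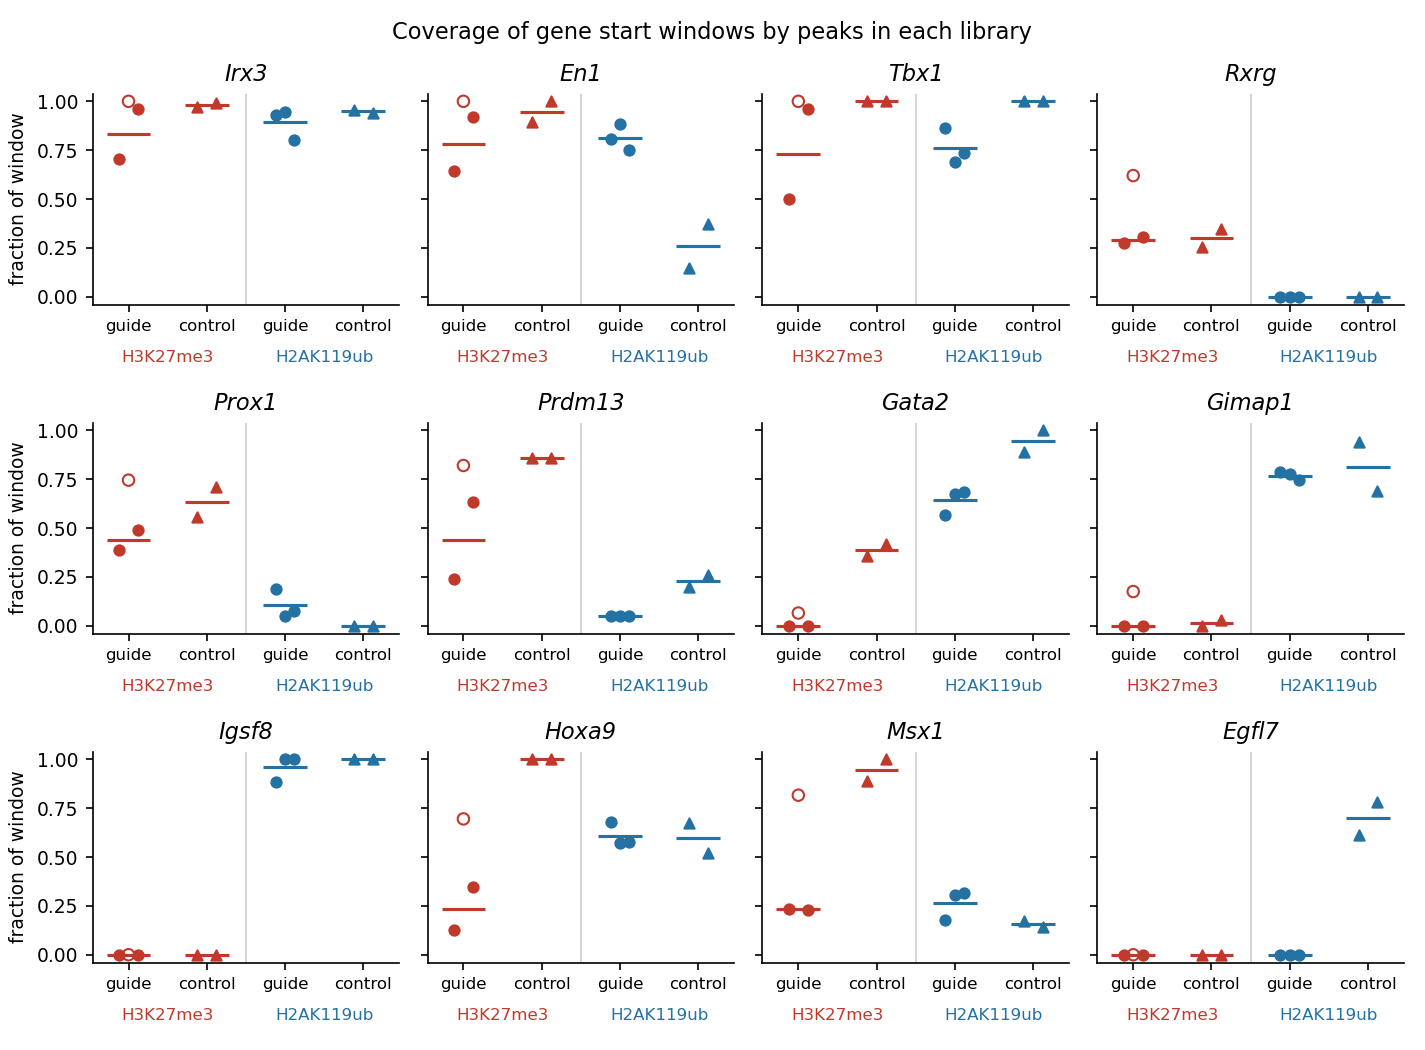
Fraction of the 10 kb gene start window covered by peaks (vertical axis) for 12 genes, with H3K27me3 in red and H2AK119ub in blue, circles for Asxl1 guide and triangles for control libraries, bars for the mean, and an open circle for Asxl1 guide H3K27me3 replicate 2, which is not in the mean. Irx3, En1 and Tbx1 carried both marks in Asxl1 guide cells, Rxrg had no H2AK119ub peak, and Gata2, Gimap1 and Igsf8 had no H3K27me3 peak in replicates 1 and 3.

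Only 1 window met the rule for H3K27me3 only, and a few more carried clearly more H3K27me3 than H2AK119ub. At Rxrg, a retinoid X receptor gene, H3K27me3 covered 0.275 and 0.305 (0.620 in replicate 2), and no H2AK119ub library had a peak. A peak of the IgG list covered 0.105 of the Rxrg window. Prox1, a homeobox factor of lymphatic and liver development, had H3K27me3 at 0.390 and 0.490 (0.745 in replicate 2) against H2AK119ub at 0.190, 0.050 and 0.075. Msx2, a homeobox factor of skull and tooth development, had H3K27me3 at 0.190 and 0.355 (0.715 in replicate 2) and no H2AK119ub peak, so that replicate 1 alone kept it out of the H3K27me3 only class. Prdm13, a neural specification factor, had H3K27me3 at 0.240 and 0.635 (0.820 in replicate 2) against H2AK119ub at 0.050 in each library. The H3K27me3 and H2AK119ub values did not overlap at any of these 4 genes.

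H2AK119ub only was found at 84 windows. Igsf8, an immunoglobulin superfamily membrane protein gene, was covered by H2AK119ub to 0.885, 1 and 1 and had no H3K27me3 peak in any replicate, replicate 2 included. Gimap1, a GTPase of lymphocytes, had H2AK119ub at 0.785, 0.775 and 0.745, and H3K27me3 in replicate 2 alone at 0.175. The windows of Gimap5, Gimap6 and Gimap8, from the same gene cluster and named here after their class was seen, fell in the class as well. Tlr5, the receptor for bacterial flagellin, had H2AK119ub at 0.709, 0.734 and 0.734 and no H3K27me3 peak in any replicate. Gata2, a transcription factor of stem cells and mast cells, had H2AK119ub at 0.566, 0.675 and 0.685 and H3K27me3 in replicate 2 alone, at 0.065. Sfi1, a centrosome gene, had H2AK119ub at 0.860, 0.875 and 0.750, but its window was also covered to 0.53 by the IgG list, and the part of that background in the value was not tested. Loxl2, Hdac10 and Pcdh7 completed the 8 most covered, with H2AK119ub at 0.580 to 0.837. A peak of the IgG list touched 58.3% of the windows with H2AK119ub only and 51.6% of those with both marks, and without all peaks that overlap the IgG list 52 and 196 windows were left in these classes. That step drops a whole H2AK119ub peak for any overlap: the windows of Igsf8, Sfi1, Tlr5, Hdac10 and Pcdh7 then held too little of either mark to be tested, the mark difference at Gimap1 was 0, and that at Gata2 was -0.23 and still called. Loxl2 had no IgG peak in its window, and its mark difference was -0.40 after that step, against -0.81 before it (limma adjusted p = 0.037 and 2.74e-06), still called. The Loxl2 window lay at the more covered gene end, and its difference was not called in a 2 kb window (-0.29, limma adjusted p = 0.687).

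Homeobox and other developmental transcription factors had the largest shares of windows with both marks among the 17 lists. Of 104 homeobox developmental factors 38 held both marks, as did 28 of 104 forkhead, Sox, T-box, Gata and bHLH factors and 13 of 74 Wnt, Bmp, Fgf and hedgehog signalling genes, against 1.58% of all placed genes. Axon guidance and neuronal genes had both marks at 8 of 80, ion channel genes at 6 of 75, myeloid transcription factors at 3 of 30, lymphoid genes at 2 of 34, stem and progenitor genes at 1 of 38 and erythroid and megakaryocyte genes at 1 of 26. None of 33 granule and neutrophil genes, 29 monocyte, macrophage and dendritic genes, 42 JAK-STAT and cytokine signalling genes or 74 ribosomal protein genes held both. H2AK119ub without H3K27me3 was rare in every list: it was found at 2 of 75 ion channel genes (Kcna3 among them), at no more than 1 member of each other list, and at 0.384% of all genes. Among these were Rara, the retinoic acid receptor that guides neutrophil maturation, with H2AK119ub at 0.310, 0.590 and 0.645, and Ccnd2, a D-type cyclin, with H2AK119ub at 0.430, 0.425 and 0.515. Without peaks that overlap the IgG list the mark difference at Rara was -0.10 and not called, against -0.52 with them (limma adjusted p = 0.818 and 0.00876).

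The Hox cluster genes formed an exception among the patterning genes, since 1 of 39 held both marks by the rule although H2AK119ub was present at 12. Mean H3K27me3 over the 39 windows was 0.040 and 0.193 in replicates 1 and 3 and 0.572 in replicate 2, and mean H2AK119ub was 0.190, 0.227 and 0.237. Of the H3K27me3 libraries, replicate 1 thus lay below the H2AK119ub libraries, replicate 3 within their range and replicate 2 above it. Neighbouring Hox windows overlap, so the 39 are not independent. Replicate 2 reached 0.2 at 35 of the 39. In control cells mean H3K27me3 was 0.496 and 0.572 and mean H2AK119ub 0.306 and 0.265, with both marks at 23 of 39.

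**Figure D2:**
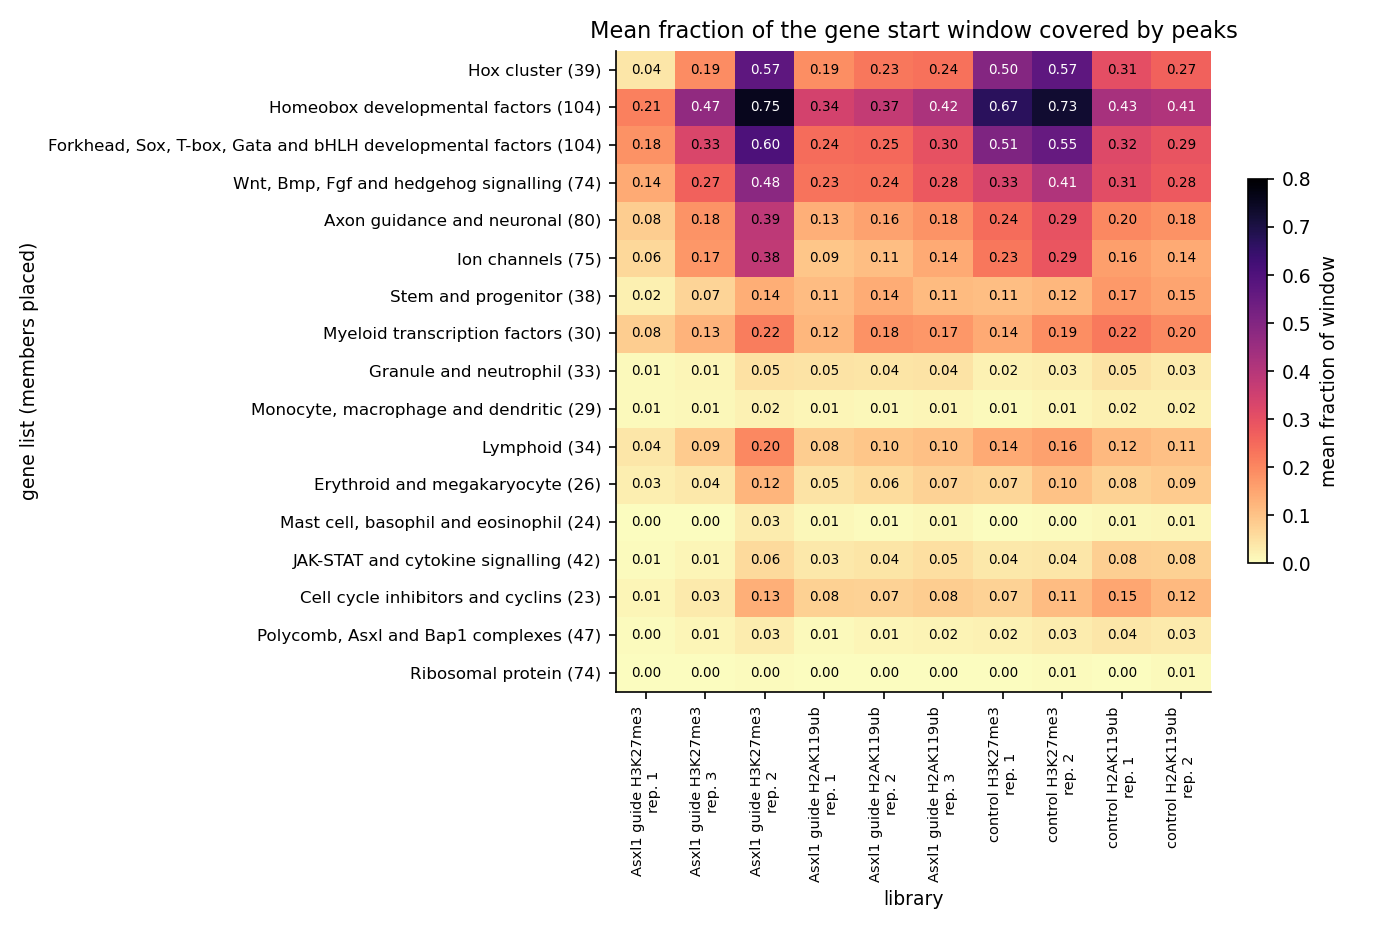
Mean fraction of the gene start window covered by peaks for each of 17 gene lists (rows, with the number of members placed) in each library (columns), Asxl1 guide libraries left of control libraries. The homeobox list is the most covered in both marks, and the granule, monocyte, mast cell and ribosomal protein lists stay at or below 0.05. In every list replicate 2 is the most covered of the Asxl1 guide H3K27me3 libraries.

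A direct test of the marks against each other found more windows with an excess of H2AK119ub than of H3K27me3. Of 4221 windows tested with limma, H3K27me3 was higher at 52 (1.23%) and H2AK119ub at 296 (7.01%), at a Benjamini-Hochberg adjusted p under 0.05, and 821 had an unadjusted p under 0.05. A peak of the IgG list touched 32.7% of the 52 windows and 48.6% of the 296, and its part in the calls was not tested. Of the 52 windows, H3K27me3 also had the higher mean in control cells at all 52. Of the 296, H2AK119ub also had the higher mean in control cells at 256, and 79 were of the H2AK119ub only class and 42 of the class with both marks. The split depends on how libraries are scaled and which are kept: with each library scaled to 1 mean coverage the counts were 697 and 568, and with H3K27me3 replicate 2 kept 123 and 180. Without H3K27me3 replicate 1 they were 151 and 144, and without replicate 3 they were 4 and 282. Without H2AK119ub replicate 1, 2 or 3 the windows with more H3K27me3 numbered 21, 22 and 30.

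The largest excess of H3K27me3 was at Prdm13, by 0.39 ± 0.09 of the window (SE, limma adjusted p = 0.0149), followed by Prox1 (0.34 ± 0.06, limma adjusted p = 0.00241) and Fsd1, a microtubule-linked protein gene (0.33 ± 0.08, limma adjusted p = 0.0135). Slc6a5, the glycine transporter gene of inhibitory neurons, had H3K27me3 at 0.160 and 0.445 (0.895 in replicate 2) against H2AK119ub at 0, 0.030 and 0.040. Sox14, a neural Sox factor, had H3K27me3 at 0.215 and 0.5 (0.848 in replicate 2) against H2AK119ub at 0.070, 0.115 and 0.080. Sox13, a Sox factor of T-cell and neural development, came closest to overlap, with H3K27me3 at 0.324 and 0.549 (0.764 in replicate 2) and H2AK119ub at 0, 0.025 and 0.295. At these genes the lowest H3K27me3 value was above the highest H2AK119ub value. The calls depend on H3K27me3 replicate 3: without it Prdm13 (0.19, limma adjusted p = 0.262), Fsd1, Sox13, Slc6a5, Msx2 and Sox14 were not called, while Rxrg and Prox1 were. In a 2 kb window Prdm13, Prox1, Sox13, Sox14 and Slc6a5 were not called, and the difference at Slc6a5 was 0.025. Fsd1 was not called without peaks that overlap the IgG list (limma adjusted p = 0.121).

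The largest excess of H2AK119ub was at Igsf8, where the difference of H3K27me3 minus H2AK119ub was -0.96 ± 0.12 (SE, limma adjusted p = 0.00012). Fgf3, a fibroblast growth factor of the inner ear and tail bud, had H3K27me3 at 0.040 and 0.070 (0.25 in replicate 2) against H2AK119ub at 0.830, 0.850 and 0.891, a difference of -0.80 ± 0.04 (limma adjusted p = 4.27e-09). The Fgf3 window was also covered by H3K4me1 to 0.325, 0.270 and 0.325. Plxnb2, a semaphorin receptor gene, had H3K27me3 at 0.120 and 0.285 (0.480 in replicate 2) against H2AK119ub at 1, 0.895 and 1. Without peaks that overlap the IgG list Fgf3 could not be tested, and the difference turned positive and was not called at Plxnb2 (0.20). Among blood genes, Ebf1, the B-cell factor, had H3K27me3 at 0 and 0.050 (0.375 in replicate 2) against H2AK119ub at 0.415, 0.570 and 0.650, a difference of -0.52 ± 0.07 (limma adjusted p = 0.00012), which was -0.41 and not called without peaks that overlap the IgG list (limma adjusted p = 0.188). Meis1, a homeobox partner of Hox proteins in stem cells, had no H3K27me3 in replicates 1 and 3 (0.120 in replicate 2) and H2AK119ub at 0.195, 0.368 and 0.308, and its difference was 0 in a 2 kb window. Cd34, a progenitor surface marker, had no H3K27me3 in any replicate, H2AK119ub at 0.182, 0.202 and 0.182, and H3K4me1 at 0.732, 0.512 and 0.412.

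Csf3r and Cebpe, genes of the neutrophil lineage, had neither mark in any Asxl1 guide library, and Cebpe had H3K4me1 at 0.379, 0.304 and 0.394. Myc had no H3K27me3 and H2AK119ub at 0.165, 0.145 and 0.070. Hoxb8 had H3K27me3 at 0.025 and 0.140 (0.435 in replicate 2) and H2AK119ub at 0.055, 0.490 and 0.095, with values that overlapped, and the files do not separate the native gene from the introduced HoxB8.

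Set against control cells, and with H3K27me3 replicate 2 left out, the balance of the marks shifted mostly toward H2AK119ub. The difference of H3K27me3 minus H2AK119ub was lower in Asxl1 guide than in control cells at 287 of 4221 windows (6.80%) and higher at 90 (2.13%), by limma on the difference of the 2 differences at an adjusted p under 0.05. Of the 287, mean H3K27me3 was lower in Asxl1 guide cells at 285, with a median change of -0.39, and mean H2AK119ub was higher at 157 and lower at 120, with a median change of 0.01. Of the 90, mean H2AK119ub was lower in Asxl1 guide cells at all 90, with a median change of -0.33, and 77 had no H3K27me3 peak in the Asxl1 guide libraries used or in control libraries. The 287 were mainly windows with less H3K27me3, and the 90 mainly windows of H2AK119ub alone in control cells. H3K27me3 replicate 2 lay below the control mean at 87 of the 287 windows. With that replicate kept in the fit none of the lower calls was left and 34 higher ones were called. At an unadjusted limma p under 0.05 that fit had 100 lower and 331 higher windows, against 814 and 287 with the replicate left out. With each library scaled to 1 mean coverage the adjusted calls were 104 lower and 118 higher. Leaving out 1 library gave 40 (without H3K27me3 replicate 1) to 583 (without replicate 3) lower calls, 74 without control H3K27me3 replicate 2 or control H2AK119ub replicate 2, 131 without control H2AK119ub replicate 1, and 183 and 149 without Asxl1 guide H2AK119ub replicates 2 and 3. The higher calls fell to 20 without Asxl1 guide H3K27me3 replicate 1, 47 and 32 without control H3K27me3 replicates 1 and 2, 43 without control H2AK119ub replicate 2 and 55 without Asxl1 guide H2AK119ub replicate 1.

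At Msx1, a homeobox factor of limb and tooth development, H3K27me3 covered 0.235 and 0.230 in Asxl1 guide cells (0.817 in replicate 2), against 0.890 and 1 in control cells. H2AK119ub at Msx1 covered 0.180, 0.305 and 0.315 in Asxl1 guide cells, against 0.175 and 0.140 in control cells, and the difference from control was -0.82 ± 0.09 (SE, limma adjusted p = 0.000331). The H3K27me3 groups did not overlap, with replicate 2 also below control. At Hoxa9, a Hox gene of stem cells and leukaemia, H3K27me3 covered 0.125 and 0.345 in Asxl1 guide cells (0.695 in replicate 2), against 1 in both control libraries. H2AK119ub at Hoxa9 overlapped between the groups, with 0.680, 0.570 and 0.575 in Asxl1 guide cells against 0.675 and 0.520 in control cells, and the difference from control was -0.78 ± 0.12 (limma adjusted p = 0.00294). Without peaks that overlap the IgG list that difference was 0.22 and not called, whereas Msx1 (-0.82) and Nrn1 (-0.82) were still called. That step drops a whole peak for an overlap anywhere along it, and no IgG peak lay in the Hoxa9 or En1 window itself. The mark difference at Hoxa9 within Asxl1 guide cells was -0.37 before and after the step, but was called only before it (limma adjusted p = 0.0102 and 0.235). With replicate 2 kept it was -0.22 and not called (limma adjusted p = 0.206). At Nrn1, a neurite growth factor gene, H3K27me3 covered 0.115 and 0.245 (0.542 in replicate 2) against 0.873 and 0.890 in control cells, while H2AK119ub covered 0.180, 0.445 and 0.375 against 0.190 and 0.175. En1 differed through H2AK119ub, with 0.809, 0.885 and 0.750 in Asxl1 guide cells against 0.145 and 0.370 in control cells, and H3K27me3 at 0.644 and 0.919 (1 in replicate 2) against 0.895 and 1, and its difference (-0.72 ± 0.15, limma adjusted p = 0.0101) was -0.22 and not called without those peaks.

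Egfl7, an endothelial secreted factor gene, was the reverse case: no Asxl1 guide library had a peak of either mark, against H2AK119ub at 0.615 and 0.783 and no H3K27me3 in control cells. Its difference from control was 0.70 ± 0.13 (limma adjusted p = 0.00567), and -0.04 and not called with the more covered gene end as the window. At Tedc1, a centriole protein gene, H2AK119ub covered 0.012, 0.065 and 0.270 in Asxl1 guide cells against 0.760 and 0.885 in control cells, with no H3K27me3 in any of them. Tppp3 and Rsph6a, genes of microtubules and sperm tails, showed the same order, with H2AK119ub at 0.035 to 0.320 in Asxl1 guide cells against 0.665 to 0.766 in control cells. These 4 genes were still called with H3K27me3 replicate 2 kept, and the 18 named genes with a lower difference were not, although some differences stayed nearly as large, at Pcdh7 (-0.33, limma adjusted p = 0.0539), En1 (-0.65, 0.0598) and Nrn1 (-0.73, 0.0583). Without peaks that overlap the IgG list Tppp3 was still called (0.58), Tedc1 (0.25) and Rsph6a (-0.08) were not, and Egfl7 could not be tested.

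By list, the lower difference was called at 15 of 35 tested Hox cluster genes, 24 of 102 homeobox factors and 23 of 95 forkhead, Sox, T-box, Gata and bHLH factors, against 6.80% of all tested windows. The median difference from control was -0.33 for the Hox cluster genes, -0.33 for the homeobox factors and -0.29 for the forkhead and other factors, beside -0.07 for all tested windows. Wnt, Bmp, Fgf and hedgehog genes had 5 of 63, ion channel genes 4 of 50 and axon guidance and neuronal genes 4 of 52. Lymphoid genes had 3 of 9 lower, erythroid and megakaryocyte genes 2 of 10, JAK-STAT and cytokine genes 2 of 11 (and 1 higher) and stem and progenitor genes 1 of 19. Of the neutrophil granule, monocyte and mast cell lists only 3 windows each were tested, and none was called either way, nor was any of 7 Polycomb complex or 8 cell cycle genes. These counts share the dependence on replicate 2 given above.

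Windows with both marks in Asxl1 guide cells largely held both in control cells, but the reverse did not hold. Of the 345 windows with both marks in Asxl1 guide cells, 323 held both in control cells, and all 345 had H3K27me3 at 0.2 or more in both control libraries. Of the 84 with H2AK119ub only, 75 had H2AK119ub at 0.2 or more in both control libraries and 47 had no H3K27me3 peak in either. At 5 of the 84, namely Gata2, Coro6, Pde10a, Rcor2 and Ccdc102a (all but Gata2 named after their values were seen), control cells held both marks. Gata2 had H3K27me3 at 0 in Asxl1 guide replicates 1 and 3 (0.065 in replicate 2), against 0.355 and 0.419 in control cells, and H2AK119ub at 0.566, 0.675 and 0.685 against 0.890 and 1. The Gata2 groups did not overlap in either mark, and the mark difference did not differ from control by the test (-0.08 ± 0.08, limma adjusted p = 0.548). Followed the other way, 323 of the 961 windows with both marks in control cells held both in Asxl1 guide cells. The 961 windows reached 0.2 for H3K27me3 at 41.3% in replicate 1, 81.3% in replicate 3 and 97.9% in replicate 2. For H2AK119ub they reached it at 71.4%, 77.7% and 86.6%. Within each mark these shares had the same order as the covered length of the lists, and the 961 windows were chosen in control cells, so the shares were not tested.

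H3K4me1, which no class rule used, separated the classes, although its peaks did enter the placing of windows without a listed start. A peak of H3K4me1 lay in 34.5%, 26.2% and 34.5% of windows with H2AK119ub only in the 3 Asxl1 guide libraries, against 4.35%, 2.61% and 4.06% of windows with both marks. Over all windows the shares were 15.6%, 11.6% and 14.7%, so windows with H2AK119ub only were above and windows with both marks below the rest in each library. The difference of H2AK119ub only minus both was 28.1 ± 3.89 percentage points (SD, n = 3 libraries), with an exact sign-flip p of 0.25, the smallest that 3 libraries allow. Among genes whose start the RefSeq promoter table gives, the shares were 32.3%, 24.6% and 32.3% for H2AK119ub only and 3.70%, 1.23% and 2.88% for both. The H3K4me1 of control cells gave 29.8% and 33.3% against 2.90% and 3.19% at the same windows. Rara, with H2AK119ub only, had H3K4me1 at 0.470, 0.535 and 0.585, and Pcdh7 and Gata2 had none.

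**Figure D3:**
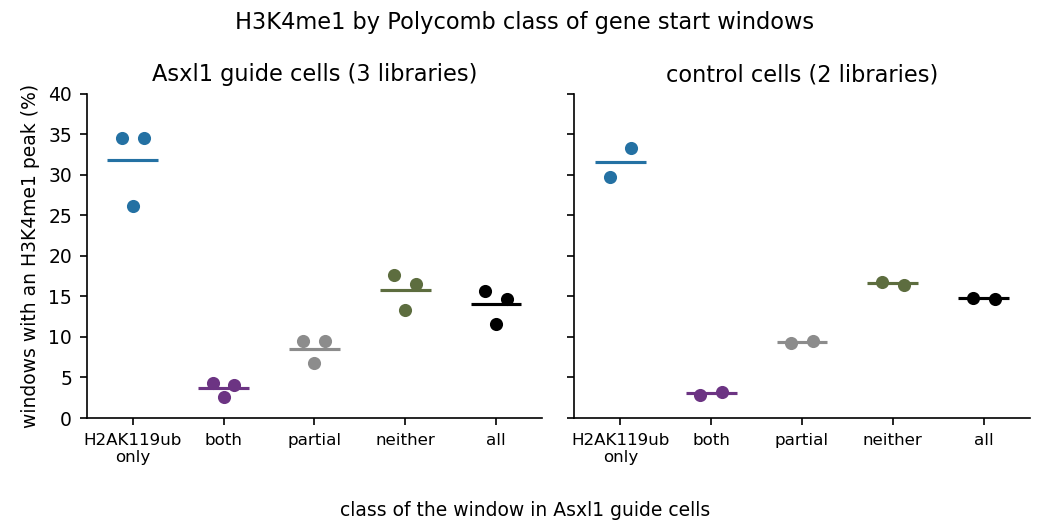
Percent of gene start windows with an H3K4me1 peak (vertical axis) by the class the window has in Asxl1 guide cells, each point 1 library and each bar the mean, for Asxl1 guide (left) and control cells (right). Windows with H2AK119ub only lie at 26.2% to 34.5%, and windows with both marks at 2.61% to 4.35%.

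Over the whole genome, peaks of the 5 libraries were merged into 26236 regions, and a mark was present in a region where each of its libraries had a peak there. Both marks lay in 2613 regions (9.96%), H3K27me3 only in 881 (3.36%) and H2AK119ub only in 2499 (9.53%), and the remaining 20243 were partial. Regions with both marks covered 9.85 Mb, those with H2AK119ub only 4.59 Mb and those with H3K27me3 only 0.688 Mb. Regions with both had a median width of 2850 bp, H2AK119ub only 1350 bp and H3K27me3 only 500 bp. By construction a region built from 5 libraries is wider when all 5 add to it, so the order of widths is a description. Of the regions of at least 5 kb, 70.8% held both marks, 141 of 773 held H2AK119ub only and none H3K27me3 only, whereas below 500 bp 0.350% held both. Leaving out H3K27me3 replicate 1 moved the H3K27me3 only regions to 6014, and the other classes to 3450 with both and 2544 with H2AK119ub only.

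**Figure D4:**
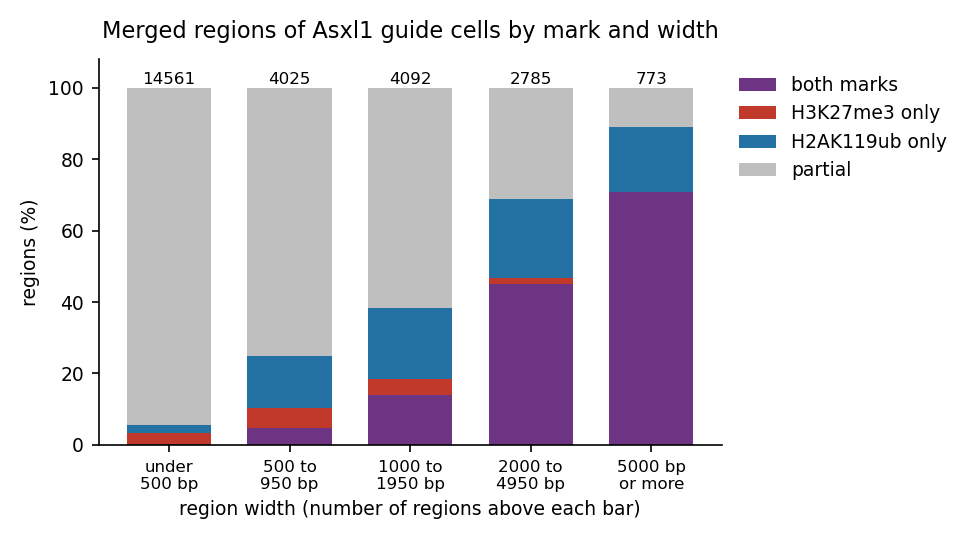
Share of merged regions (vertical axis, percent) in each class by region width (horizontal axis), with the number of regions above each bar. Both marks rise from 0.350% of regions under 500 bp to 70.8% of those of 5 kb or more, and H3K27me3 only is absent from the widest group.

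A gene start lay inside 52.7% of regions with both marks, 14.2% with H3K27me3 only and 8.52% with H2AK119ub only, against 10.7% of all regions. The shares also moved with width: from 500 bp to under 1 kb they were 19.1% for both marks, 19.1% for H3K27me3 only and 2.75% for H2AK119ub only, and from 2 kb to under 5 kb they were 57.0%, 32.1% and 15.7%. H3K27me3 replicate 2 had a peak in 100% of regions with both marks, in 99.8% with H3K27me3 only and in 35.5% with H2AK119ub only. H3K4me1 peaks of all 3 libraries met 10.6% of regions with H2AK119ub only, 0.804% of those with both marks and 0% of the 881 with H3K27me3 only. Control H3K27me3 of both libraries was found in 93.2% of regions with both marks, 60.6% with H3K27me3 only and 9.68% with H2AK119ub only, and control H2AK119ub of both libraries in 88.1%, 6.02% and 79.2%. A peak of the IgG list met 24.9% of regions with both marks, 10.9% with H3K27me3 only and 21.7% with H2AK119ub only.

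Among the widest regions (mm10), the widest with both marks was chr8:123537351-123624650, 87300 bp with no protein-coding gene, 18515 bp from the start of Gas8, a cilium gene. H3K27me3 covered 28.1% of it in replicate 1 and 90.4% in replicate 3 (99.9% in replicate 2), and H2AK119ub 98.7%, 99.8% and 100% in replicates 1 to 3, with no IgG peak. The next were chr1:75440301-75499750, 59450 bp over Gmppa, Asic4, Chpf, Tmem198 and Obsl1, and chr6:72199001-72243600, 44600 bp at Atoh8, a bHLH factor. Regions in Synpo (41650 bp) and at Bcar1 (39800 bp) and a region without a gene on chromosome 12 (36050 bp) completed the 6 widest. In each of these 6 regions H2AK119ub covered more of the length than H3K27me3 replicate 1 or 3. The widest region with H3K27me3 only spanned 4100 bp in Gdf6, a bone morphogenetic protein gene, and others lay near Nkx2-1, a lung and thyroid factor, and in Fam83f and Hmcn2. The widest with H2AK119ub only spanned 21250 bp in Mical3, a monooxygenase that acts on actin. A second, of 16750 bp on chromosome 9, lay wholly within the IgG list, and the others lay at Plxnb2 (16250 bp) and over predicted genes on chromosome 6 (16000 bp).

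Measured in base pairs, the shared length was a larger part of H3K27me3 replicate 1 (up to 70.9% over the 3 H2AK119ub libraries) than of H2AK119ub (up to 24.1%). For H3K27me3 replicate 3 the parts were close, 40.6% to 51.2% of H3K27me3 and 38.1% to 42.7% of H2AK119ub. Of the H3K27me3 length 64.9% in replicate 1 and 45.4% in replicate 3 lay in H2AK119ub peaks, averaged over the 3 H2AK119ub libraries, and 17.1% of the longer replicate 2 list did. Of the H2AK119ub length 33.4%, 31.9% and 29.1% lay in H3K27me3. In control cells the shares were 45.7% and 38.1% for H3K27me3 and 38.9% and 38.4% for H2AK119ub, and the CSF3R T618I and double cells spanned 29.4% to 56.0% and 26% to 52.0%. The Asxl1 guide libraries differed from the 7 of the other genotypes by 14.2 percentage points for H3K27me3 (2 libraries, exact 2-sided permutation p = 0.167) and by -7.79 for H2AK119ub (3 libraries, exact 2-sided permutation p = 0.167). Neither passed 0.05, the smallest p possible being 0.0278 and 0.00833. Without H3K27me3 replicate 3 the H2AK119ub difference was -17.0 (exact p = 0.0167), and with replicate 2 kept it was 3.4.

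Peaks shared between the marks were wider than unshared ones in every library. H3K27me3 peaks with at least 50% of their length in H2AK119ub had median widths of 600 and 950 bp in replicates 1 and 3, against 300 and 350 bp for other peaks, and in replicate 2 1350 against 400 bp. H2AK119ub peaks inside H3K27me3 had medians of 750, 850 and 800 bp, against 450 bp for other peaks in each library. The ratio of inside to outside was 1.67, 1.89 and 1.78 for H2AK119ub in Asxl1 guide cells, below each of the other 7 libraries, which had 2.56 and 2.63 in control, 2.38, 2.63 and 2.57 in CSF3R T618I and 2.25 and 2.00 in double cells. On the log2 scale the Asxl1 guide libraries were lower by a mean of -0.45 (exact 2-sided permutation p = 0.00833, the smallest that 120 arrangements allow). Inside meant at least 50% of the H2AK119ub peak in H3K27me3 found in every library used of the genotype. In Asxl1 guide cells that reference lies within the short replicate 1 list (4.73 Mb). Without replicate 1, so with replicate 3 alone as the reference, the log2 difference was -0.31. The libraries of a genotype share 1 reference, so their values are not independent. The other 7 libraries include double cells, which carry the same guide. The call did not hold without peaks that overlap the IgG list (-0.22, exact p = 0.0917), and with any 1 bp overlap as the rule for inside the difference was 0.17 (exact p = 0.225). For H3K27me3 peaks the ratios were 2.00 and 2.71 (3.38 in replicate 2) against 1.80 to 2.64 in the other 7 libraries, a difference of 0.14 on the log2 scale (exact permutation p = 0.556).

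**Figure D5:**
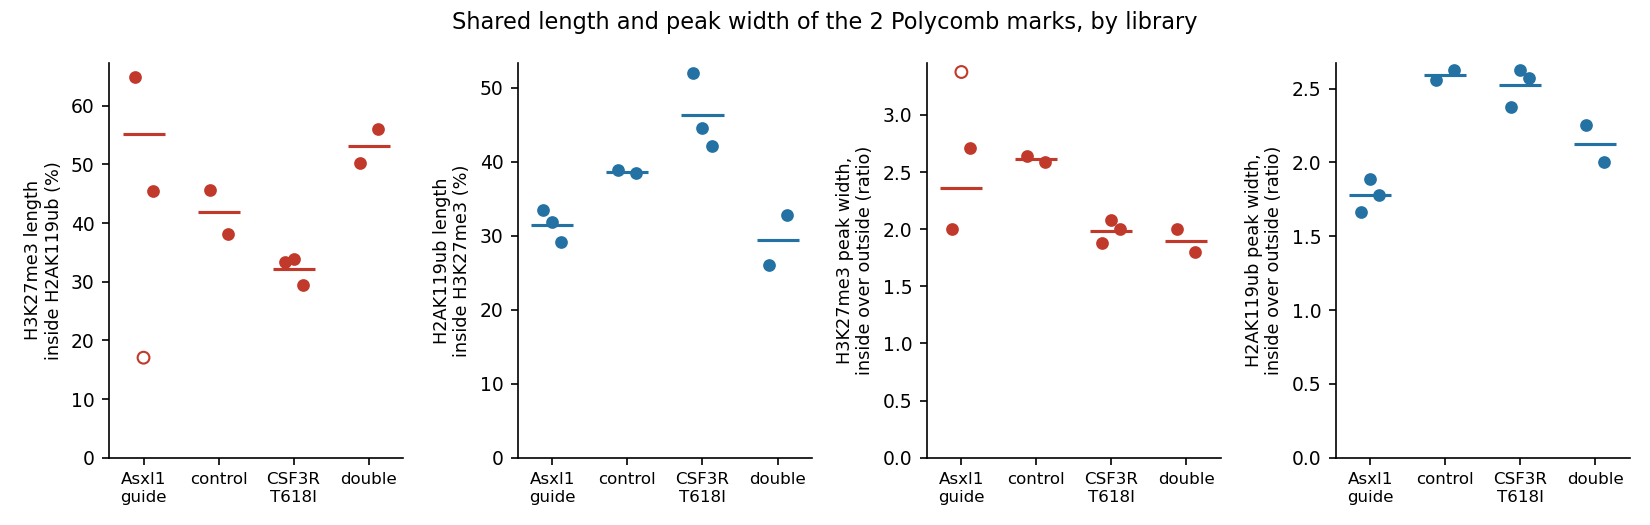
Share of the length of each mark inside peaks of the other mark (left pair of panels, percent) and ratio of median peak width inside to outside the other mark (right pair of panels), each point 1 library and each bar the mean of a genotype. The open circle is Asxl1 guide H3K27me3 replicate 2, and the 3 Asxl1 guide libraries have the lowest H2AK119ub width ratios, 1.67 to 1.89.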

How the data were processed

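CUT&Tag peak lists for H3K27me3, H2AK119ub and H3K4me1 (30 libraries) and 1 list from 2 merged IgG samples were used as deposited. Their values, of a kind other than counts or signal, are peak starts and ends in bp on mm10 with no score. Reads were aligned with Bowtie2 2.4.1 and deepTools 3.5 was used, per the submitters' processing notes. Which program called the peaks, and at what cutoff, is not given in the sources used here. All peaks were at least 200 bp and their widths multiples of 50 bp, as computed from the lists.

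Windows of 10 kb were centred on the start in the RefSeq promoter table (17492 genes, GRCm38.p6, the coordinates of mm10) or, for 4395 genes without one, on the gene end with more coverage over the 30 libraries, which can be the 3′ end. Named genes placed by the more covered end include Asic4, Sim2, Otx1, Sfi1, Loxl2, Hdac10, Ccnd2, Cebpe, Myc, Nrn1, Tppp3, Hoxc12 and Osr2. Fractions covered were fitted with limma 3.58.1 on 8 group means over 19 libraries, without Asxl1 guide H3K27me3 replicate 2. Windows at 0.2 or more in at least 2 libraries entered, and p was 2-sided and Benjamini-Hochberg adjusted. Single values were compared by exact permutation over libraries. The limma step was tested on simulated data drawn from a normal distribution with a capped spread. The real fractions are bounded, hold many zeros and can spread more widely, so that test does not cover them. Python 3.11.15, numpy 2.4.6, pandas 2.3.3 and SciPy 1.17.1 were used.

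Genes were named by a rule: up to 8 windows with the largest difference each way and up to 8 of each class, up to 4 each way against control, up to 3 members of each of 17 gene lists, the widest regions, and 7 genes tied to the model (Myc, Cebpe, Meis1, Hoxa9, Hoxb8, Csf3r and Asxl1). The lists cover developmental factors, signalling, neuronal and ion channel genes, blood lineages, cytokine signalling, cell cycle, Polycomb and ribosomal protein genes. Members, lists and tests were chosen with earlier results of these data known. Windows only of genes in the promoter table, and the more covered end for every gene, were alternatives added after seeing the data. A few genes that the rule names are not reported here.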

Additional observations from a re-analysis of the deposited data

Results flagged for a closer look

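The balance of the 2 marks, H3K27me3 minus H2AK119ub, differed between Asxl1 guide and control cells by limma at 22 of the genes named, 18 lower and 4 higher in Asxl1 guide cells. The lower ones had differences of -0.85 at Nrn1, -0.82 at Msx1, -0.78 at Hoxc12, -0.78 at Hoxa9, -0.72 at En1, -0.70 at Hoxa11, -0.65 at Tspan33, -0.64 at Hoxd10 and -0.56 at Lifr. They also included -0.47 at Slc6a5, -0.46 at Emx2, -0.43 at Evx2, -0.40 at Lhx9, -0.39 at Plxnb2, -0.35 at Msx2, -0.33 at Osr2, -0.33 at Pcdh7 and -0.25 at Gp1bb. The higher ones were 0.71 at Tedc1, 0.70 at Egfl7, 0.58 at Tppp3 and 0.57 at Rsph6a. With H3K27me3 replicate 2 kept, the 4 higher ones were still called and none of the 18 lower ones was. The width of H2AK119ub peaks inside H3K27me3 over those outside was lower in Asxl1 guide cells than in the other genotypes, by -0.45 on the log2 scale (exact permutation p = 0.00833). That call was lost without peaks that overlap the IgG list (-0.22), and with any 1 bp overlap as the rule the difference was 0.17. It rests on values that share 1 H3K27me3 reference per genotype. The groups had 2 or 3 libraries, too few to look for single libraries far from their group by a fixed limit.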

How the results depend on the processing

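The peak lists hold no heights, so depth is unknown and the covered length of a list sets what a window can reach. In the order windows with more H3K27me3, with more H2AK119ub, with a mark difference higher and lower than in control, limma called 123, 180, 34 and 0 with H3K27me3 replicate 2 kept, and 126, 253, 41 and 160 in a 2 kb window. It called 33, 166, 61 and 173 without peaks overlapping IgG, 697, 568, 118 and 104 with libraries scaled to 1 mean, and 347, 182, 104 and 150 with covered length as a covariate. With no filter the first count was 79, and with Asxl1 guide libraries alone 10. Same-numbered libraries did not deviate together (correlations of -0.044 to 0.133), and with the replicate number as a block the 4 counts were 19, 238, 59 and 245, the differences of the shared shares 14.4 (H3K27me3) and -8.28 (H2AK119ub). Leaving out 1 library gave ranges of 4 to 151, 144 to 296, 20 to 75 and 40 to 583. Scaling moved the share of H3K27me3 among the calls to 55.1%, from 14.9%, and of higher among the calls against control to 53.2%, from 23.9%. Windows with both marks, H3K27me3 only and H2AK119ub only numbered 840, 24 and 195 at 0.1 of the window, 26, 0 and 19 at 0.5, 928, 79 and 188 in a 2 kb window, 807, 96 and 161 with 2 of 3 libraries of each mark, and 196, 2 and 52 without peaks overlapping IgG. With replicate 2 also required 42 held H2AK119ub only. Leaving out 1 library gave 348 to 613, 1 to 33 and 86 to 132. Regions numbered 1497, 328 and 1417 without peaks under 500 bp, 1613 with H2AK119ub only when replicate 2 was required, and 2644 to 3450, 1002 to 6014 and 2544 to 3645 without 1 library. The difference in the share of H3K27me3 length inside H2AK119ub ranged from 4.45 to 23.9 points without 1 library. That of H2AK119ub inside H3K27me3 was 3.4 with replicate 2 kept and -17.0 to 1.42 without 1 library. The Asxl1 guide minus other genotypes difference in the log2 width ratio of H3K27me3 peaks was -0.71 with any overlap of 1 bp, -0.0036 without peaks overlapping IgG and -0.082 to 0.36 without 1 library. The same difference for H2AK119ub peaks was 0.17, -0.22 and -0.49 to -0.31. Of 45 named genes called between the marks 32 held with replicate 2 kept, and of 22 called against control 4. Signs turned for the mark difference at Plxnb2 (0.20) and Lhx9 (0.36) without peaks overlapping IgG, and at Gdf7 (0.083) and Gp1bb (0.085) with libraries scaled. Against control they turned at Rsph6a (-0.081), Hoxa9 (0.22), Hoxa11 (0.0097) and Lhx9 (0.36) without peaks overlapping IgG, at Msx2 (0.0017) and Gp1bb (0.25) with libraries scaled, and at Egfl7 (-0.039) with the more covered end. The causes were not tested.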
